A study of Mus musculus with 8 samples.

Results

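The genes described here are 10 genes of basement membrane collagens, laminins and their linkers: Col4a1 (ENSMUSG00000031502), Col4a2 (ENSMUSG00000031503), Lama2 (ENSMUSG00000019899), Lama4 (ENSMUSG00000019846), Lama5 (ENSMUSG00000015647), Lamb1 (ENSMUSG00000002900), Lamb2 (ENSMUSG00000052911), Lamc1 (ENSMUSG00000026478), Nid1 (ENSMUSG00000005397) and Hspg2 (ENSMUSG00000028763). They were chosen by name and each was found by its Ensembl ID among the 54309 genes of the count table. Whole liver of male C57BL/6 mice was sequenced after 16 weeks on a fructose, palmitate and cholesterol diet that produces steatohepatitis, a fatty, inflamed and scarring liver. From week 8 to week 16 they were injected intraperitoneally with anti-CD47 antibody, at 200 µg for each mouse, or with IgG as control. CD47 is a cell surface protein that signals macrophages not to engulf the cell bearing it. No group without the diet or without an injected antibody was analysed here, so both groups had the diet. Libraries antiCD47 1 to 4 and IgG 1 to 4 were compared, out of 7 to 8 mice that the series describes per group. Total counts were 43691472 to 55477484 per library, and no 2 libraries of a group agreed within sampling noise. No label ties these libraries to individual animals, and p-values measure the spread between libraries, which may in part be technical. Albumin (Alb), the main hepatocyte product, was at 43200 to 52200 CPM in antiCD47 and 41000 to 44600 CPM in IgG. CPM (counts-per-million) is the count relative to library size, scaled by TMM, a factor that sets most genes level between libraries.

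A basement membrane is a thin sheet of matrix on which epithelia, vessels and muscle cells rest. Laminin, a trimer of an alpha, a beta and a gamma chain, and collagen IV, a trimer of alpha chains, each form a network, and nidogen and the heparan sulphate proteoglycan perlecan tie the networks together. In the healthy liver sinusoid, endothelial cells sit on a sparse matrix with no continuous basement membrane, while bile ducts, portal vessels and nerves have one. Collagen IV and laminin are known to build up along the sinusoids in chronic injury, a change called capillarization, and stellate, endothelial, biliary and smooth muscle cells are all known to make them.

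Of the 10 genes, 5 fell in antiCD47 livers and 0 rose, at an adjusted p under 0.05 (edgeR quasi-likelihood test, two-sided, Benjamini-Hochberg adjustment over 15472 genes). Those that fell were the laminin chains Lamb2, Lama2, Lama5 and Lama4 and the nidogen gene Nid1. Over all genes tested, 5.4% were called lower and 5.44% higher. The median log2 fold change of the 10 genes was -0.42, against -0.01 over all genes. The main collagen IV chain gene Col4a1 (log2 fold change 0.28) and the main laminin gamma chain gene Lamc1 (0.09) did not pass. The ratio of Col4a1 to its partner Col4a2 was higher in every antiCD47 library than in any IgG library. That ratio was 1 of 4 chosen with earlier results of these data known. How often ratios of other gene pairs separate in this way was not computed. At an unadjusted p under 0.05 by the same test, 7 of the 10 genes were lower and 1, Col4a1, was higher. Over all genes 16.0% were lower and 16.6% higher at that threshold, 32.5% in all. DESeq2 and limma voom called 0 higher. Limma voom with quality weights called Col4a1 at an adjusted p of 0.0268, and the other alternatives did not, with adjusted p of 0.0729 to 0.586. The authors' deposited table has Col4a1 higher, with a log2 fold change of 0.66 and an adjusted p of 0.000203. Whole liver was measured, so fewer cells of a type and less RNA per cell cannot be told apart. Bile duct markers fell beside these genes in 7 of 8 cases, and their part in the result was not tested.

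Col4a1 and Col4a2 lie head to head on mouse chromosome 8 and are read from a shared, bidirectional start region. Their RefSeq promoter windows (GRCm38.p6, 250 bases before to 50 bases after each start) are shown because the 2 genes did not move together. The capitals mark the 78 bases (chr8:11312777-11312854) that both windows hold, each read 5′ to 3′ on its own gene's strand.
Col4a1, chr8:11312777-11313076, minus strand: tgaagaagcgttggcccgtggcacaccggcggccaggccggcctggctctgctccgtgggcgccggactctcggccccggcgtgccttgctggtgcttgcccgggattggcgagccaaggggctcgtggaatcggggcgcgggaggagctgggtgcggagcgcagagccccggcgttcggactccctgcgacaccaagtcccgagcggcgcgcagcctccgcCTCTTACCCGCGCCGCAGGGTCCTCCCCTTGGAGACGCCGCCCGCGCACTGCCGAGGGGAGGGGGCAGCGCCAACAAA
Col4a2, chr8:11312555-11312854, plus strand: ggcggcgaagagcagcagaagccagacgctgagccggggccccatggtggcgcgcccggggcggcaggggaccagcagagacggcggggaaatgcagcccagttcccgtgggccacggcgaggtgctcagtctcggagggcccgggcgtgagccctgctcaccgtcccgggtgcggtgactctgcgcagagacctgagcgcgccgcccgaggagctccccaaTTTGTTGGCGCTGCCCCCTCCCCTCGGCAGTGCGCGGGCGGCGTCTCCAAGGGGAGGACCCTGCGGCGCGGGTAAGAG

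The annotated starts, at 11312826 for Col4a1 and 11312805 for Col4a2, place 22 bases in both transcripts. No source used here says whether counting kept the strand, so how reads within those 22 bases were assigned is not known. The shared stretch holds 1 GC box (GGGCGG, searched on both strands) and 1 CTC box (CCCTCCCC, both strands), a motif described for collagen IV promoters. Over 32851 promoter windows of this length, 35.7% hold the first and 10.8% the second. A TATA box (TATAAA, both strands), present in 13.6% of windows, was in neither window, and each window holds 1 CCAAT on either strand, as 37.4% of windows do. No match of one motif overlapped a match of another. The windows are 74% and 73.7% G or C with 37 and 33 CpG sites for Col4a1 and Col4a2, where the median window has 52.7% and 7 sites.

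Col4a1, which encodes the alpha-1 chain present in almost every basement membrane, had 130, 155, 176 and 128 CPM in antiCD47 1 to 4 and 119, 114, 111 and 140 CPM in IgG 1 to 4. The groups overlapped only through IgG 4, which was above antiCD47 1 and antiCD47 4. Its log2 fold change was 0.28 ± 0.12 (SE; edgeR adjusted p = 0.131).
Col4a2, the alpha-2 chain that joins alpha-1 chains in the common trimer, had 51.5, 56.4, 48 and 53.2 CPM in antiCD47 1 to 4 and 68.9, 56.7, 57.9 and 83.9 CPM in IgG 1 to 4. All 4 antiCD47 libraries were lower than all 4 IgG libraries, by a narrow margin, as in 10.1% of all genes tested (19.6% in either direction). Its log2 fold change was -0.36 ± 0.12 (edgeR adjusted p = 0.0823), short of the threshold, and it passed by DESeq2 (adjusted p = 0.0483), by voom with quality weights (0.0302) and with scaling by library totals alone (0.0257).

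Within each library the count ratio of Col4a1 to Col4a2 does not depend on how libraries are scaled. It was 2.52, 2.74, 3.66 and 2.4 in antiCD47 1 to 4 and 1.73, 2.02, 1.92 and 1.67 in IgG 1 to 4. Every antiCD47 library was above every IgG library, and antiCD47 3 was the highest. The mean log2 ratio was 1.48 ± 0.27 in antiCD47 and 0.87 ± 0.13 in IgG (SD, n = 4 each), a 1.53-fold difference (exact permutation test over libraries, two-sided, p = 0.0286, the smallest that 4 against 4 can give, and 0.0381 adjusted over the 4 ratios tested). Leaving out any 1 library left the log2 difference between 0.48, without antiCD47 3, and 0.68. In each such set the smallest p possible is 0.0571. The 4 ratios were chosen with earlier results of these data known, which the adjustment does not account for.

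**Figure D1:**
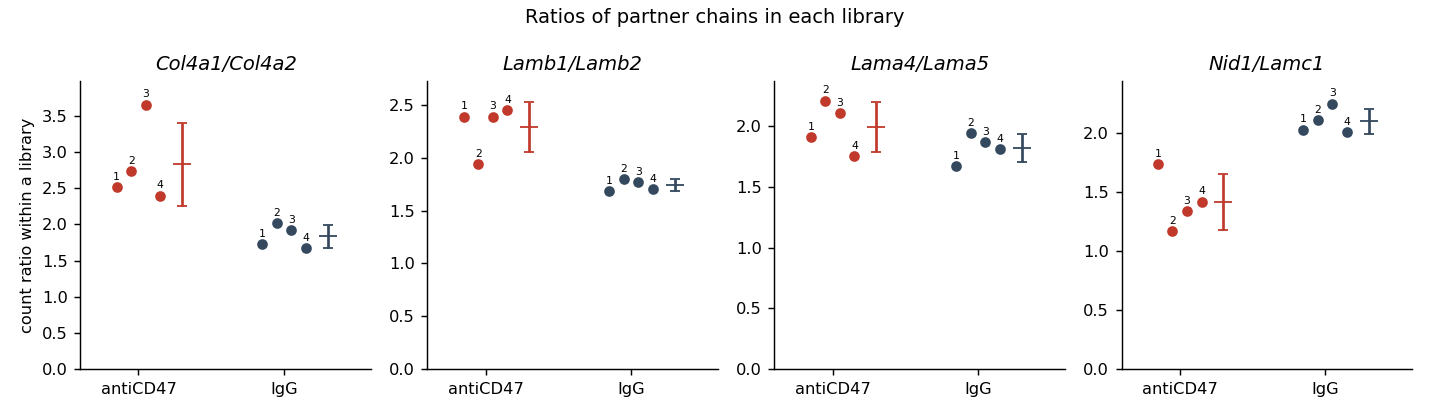
Count ratios of 4 gene pairs within each library (vertical axis, no unit, from 0), antiCD47 left of IgG in each panel, dots numbered by library, bars mean ± SD. Col4a1 and Col4a2 chains join in a trimer. Lamb1 and Lamb2, like Lama4 and Lama5, are alternative chains of a class, and Nid1 is a linker. Col4a1/Col4a2 and Lamb1/Lamb2 were higher and Nid1/Lamc1 lower in all 4 antiCD47 libraries than in all 4 IgG libraries, while Lama4/Lama5 overlapped. The ratios were chosen with earlier results known, and the share of other gene pairs that separate so was not computed.

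The rarer collagen IV chains, which form the networks of kidney, lung and some epithelial and smooth muscle basement membranes, fell in 4 of 4 genes. Col4a4 had 1.14, 0.584, 0.532 and 0.672 CPM in antiCD47 1 to 4 and 1.91, 1.75, 2.03 and 3.01 CPM in IgG 1 to 4, a log2 fold change of -1.57 ± 0.29 (edgeR adjusted p = 0.0195). Col4a3 was at -1.41 ± 0.31 (adjusted p = 0.028), Col4a5 at -1.24 ± 0.25 (0.0247) and Col4a6 at -1.24 ± 0.32 (0.0384). They are minor transcripts. As a share of the summed CPM per kilobase of exon over the 6 collagen IV genes, Col4a1 made up 69.8 ± 3.93% in antiCD47 and 58.9 ± 2.16% in IgG, Col4a2 28.3 ± 3.6% and 36.4 ± 1.92%, and Col4a5, the most abundant of the others, 1.33 ± 0.513% and 3.15 ± 0.605%. The summed level of the class was 28.1 ± 2.78 CPM per kilobase in antiCD47 and 27.6 ± 3.9 in IgG (SD, n = 4 each).

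**Figure D2:**
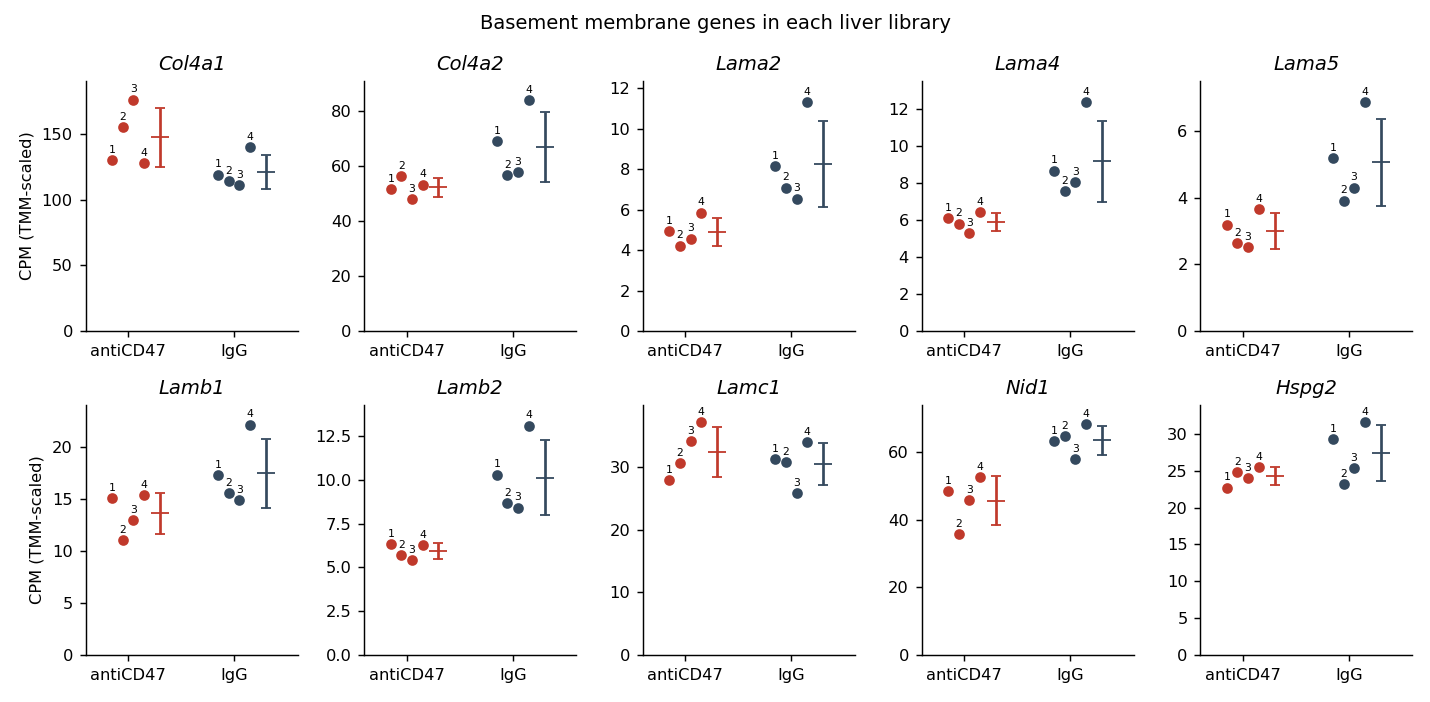
Level of each of the 10 genes in each library (vertical axes, TMM-scaled CPM, from 0), antiCD47 left of IgG, dots numbered by library, bars mean ± SD. Lama2, Lama4, Lama5, Lamb2, Nid1 and Col4a2 do not overlap between groups and are lower in antiCD47, as are 10.1% of all genes tested (19.6% in either direction). IgG 4 is the highest IgG library in all 10 panels.

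The laminin alpha chains set which receptors and which tissue a laminin serves, and all 3 alpha chains among the 10 genes fell. Lama2, the chain of muscle and Schwann cell basement membranes that mesenchymal cells of the liver also make, had 4.96, 4.23, 4.57 and 5.86 CPM in antiCD47 1 to 4 and 8.14, 7.09, 6.55 and 11.3 CPM in IgG 1 to 4. The groups were separate, with antiCD47 4 closest to the IgG range. Its level in antiCD47 was 59.2% of that in IgG (log2 fold change -0.76 ± 0.18, edgeR adjusted p = 0.0327).
Lama4, the chain of vascular endothelium and pericytes, had 6.1, 5.82, 5.3 and 6.42 CPM in antiCD47 1 to 4 and 8.68, 7.58, 8.06 and 12.4 CPM in IgG 1 to 4. The antiCD47 libraries were tightly grouped below the IgG libraries, of which IgG 4 stood highest. The log2 fold change was -0.64 ± 0.16 (edgeR adjusted p = 0.0353).
Lama5, the chain of epithelial and mature vascular basement membranes, had 3.19, 2.64, 2.52 and 3.66 CPM in antiCD47 1 to 4 and 5.19, 3.91, 4.3 and 6.85 CPM in IgG 1 to 4. The highest antiCD47 library, antiCD47 4, was just below the lowest IgG library, IgG 2. The log2 fold change was -0.76 ± 0.20 (edgeR adjusted p = 0.0416).
The count ratio of Lama4 to Lama5 was 1.99 ± 0.202 in antiCD47 and 1.82 ± 0.114 in IgG (SD, n = 4 each) and overlapped between groups (exact permutation p = 0.229). The log2 difference was 0.13, and 0.08 to 0.19 with any 1 library left out.
The other alpha chains did not pass. Lama1, the chain of the early embryo that few adult tissues keep, had 5.25, 4.17, 4.89 and 4.42 CPM in antiCD47 1 to 4 and 4.04, 3.6, 3.48 and 3.75 CPM in IgG 1 to 4. Its antiCD47 libraries were all above its IgG libraries, as in 9.51% of all genes (log2 fold change 0.33 ± 0.11, edgeR adjusted p = 0.0804). Lama3, an epithelial chain, had 1.35 to 5.01 CPM in antiCD47 and 1.33 to 3.43 CPM in IgG and overlapped between groups. Per kilobase of exon, Lama1 made up 27 ± 4.66% of the alpha chain sum in antiCD47 and 16.9 ± 2.67% in IgG, and Lama4, the most abundant alpha chain in IgG, 27 ± 0.965% and 32.6 ± 2.1%.

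The beta chains parted from each other. Lamb2, the beta chain of neuromuscular, kidney and vessel wall laminins, had 6.31, 5.7, 5.43 and 6.28 CPM in antiCD47 1 to 4 and 10.3, 8.69, 8.42 and 13.1 CPM in IgG 1 to 4. The groups were separate, and the level in antiCD47 was 58.6% of that in IgG. With a log2 fold change of -0.77 ± 0.14 (edgeR adjusted p = 0.0198), it had the smallest p of the 10 genes.
Lamb1, the widely expressed beta chain, had 15.1, 11.1, 13 and 15.4 CPM in antiCD47 1 to 4 and 17.3, 15.6, 14.9 and 22.2 CPM in IgG 1 to 4. Here antiCD47 1 and antiCD47 4 lay above IgG 3, and the log2 fold change of -0.36 ± 0.15 did not pass (edgeR adjusted p = 0.12).
The difference between the chains was itself tested, as 1 of the 4 ratios chosen with earlier results known. The count ratio of Lamb1 to Lamb2 was 2.39, 1.94, 2.39 and 2.45 in antiCD47 1 to 4 and 1.68, 1.8, 1.77 and 1.7 in IgG 1 to 4, with no overlap. The IgG ratios were close together and antiCD47 2 was the antiCD47 library nearest to them. The ratio was 1.31-fold higher in antiCD47 (exact permutation p = 0.0286, adjusted p = 0.0381 over the 4 ratios). Lamb3, the epithelial beta chain, had 4.89 to 11.8 CPM in antiCD47 and 9.22 to 11.1 CPM in IgG and did not pass (log2 fold change -0.20 ± 0.22, edgeR adjusted p = 0.562).

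Lamc1, the gamma chain of most laminins and one that binds nidogen, had 27.9, 30.6, 34.1 and 37.1 CPM in antiCD47 1 to 4 and 31.2, 30.8, 25.8 and 34 CPM in IgG 1 to 4. The groups overlapped. The log2 fold change was 0.09 ± 0.11 (edgeR adjusted p = 0.593), and -0.09 with scaling by library totals alone, so its sign depends on the scaling.
Another gamma chain gene, Lamc3, had 6.39, 4.63, 4.34 and 4.24 CPM in antiCD47 1 to 4 and 11, 11.5, 8.36 and 14.2 CPM in IgG 1 to 4. It fell, with a log2 fold change of -1.20 ± 0.18 (edgeR adjusted p = 0.016), and antiCD47 1 was the highest antiCD47 library and still below every IgG library. Per kilobase of exon, Lamc1 made up 82.8 ± 4.58% of the sum of Lamc1 and Lamc3 in antiCD47 and 66.8 ± 2.37% in IgG (SD, n = 4 each). The shares ranged from 76.3 to 86.6% in antiCD47 and from 63.8 to 69.5% in IgG and did not overlap.

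**Figure D3:**
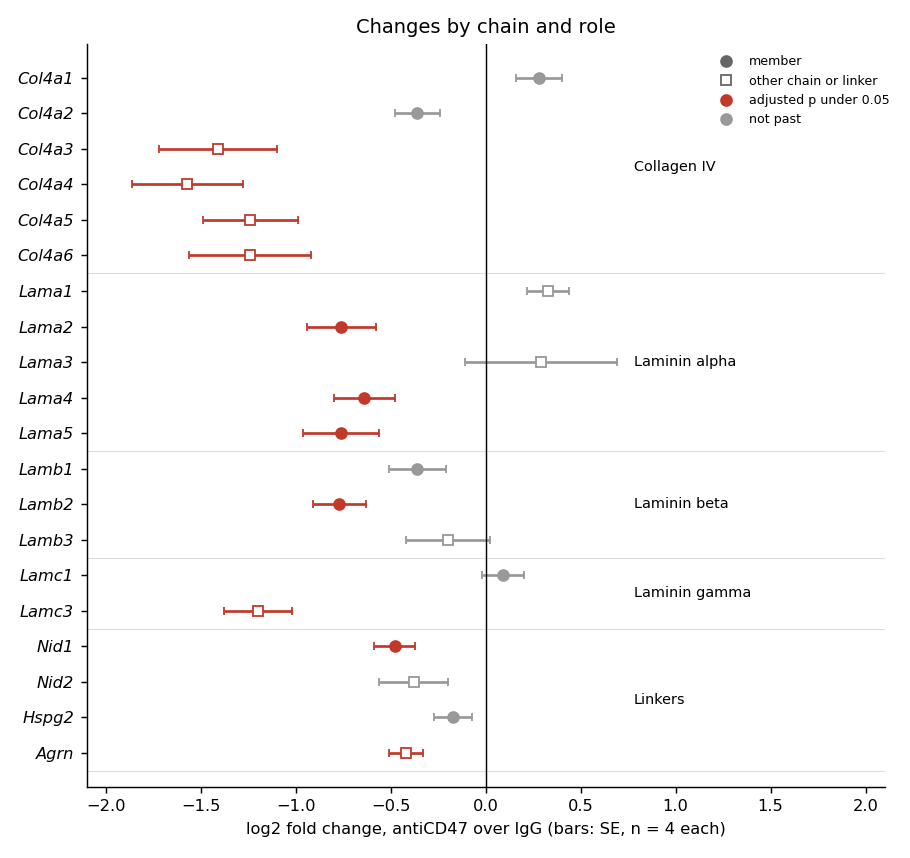
Log2 fold change, antiCD47 over IgG (horizontal axis), with SE bars for collagen IV chains, laminin alpha, beta and gamma chains and linkers, n = 4 libraries each. Filled circles are the 10 genes described and open squares related genes, and red marks an adjusted p under 0.05: Lamc3 lies at -1.20 while Lamc1 lies at 0.09.

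**Figure D4:**
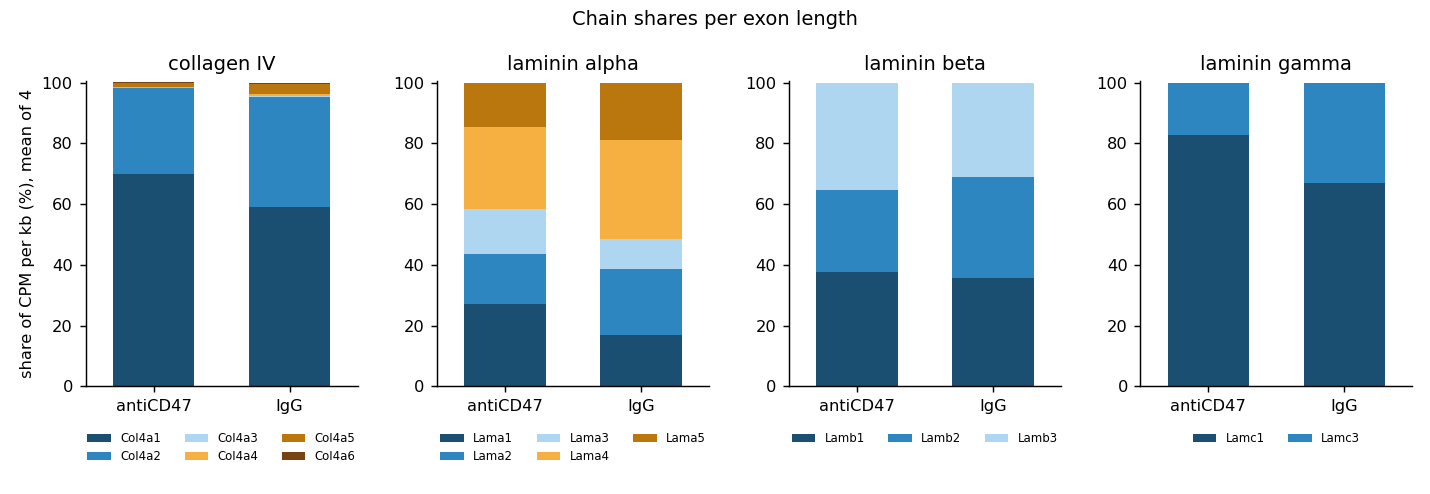
Stacked bars of each chain's share of the summed CPM per kilobase of exon in its class, the gamma class being Lamc1 and Lamc3 (vertical axis, percent, mean of 4 libraries), antiCD47 left of IgG in each panel. Col4a1 makes up 69.8% in antiCD47 and 58.9% in IgG, and Lamc1 82.8% in antiCD47 and 66.8% in IgG.

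Nid1 encodes nidogen-1, the linker that holds the laminin gamma-1 chain and collagen IV at once. It had 48.5, 35.9, 45.8 and 52.7 CPM in antiCD47 1 to 4 and 63.4, 64.9, 58 and 68.3 CPM in IgG 1 to 4. All antiCD47 libraries were below all IgG libraries, with antiCD47 2 lowest. The log2 fold change was -0.48 ± 0.11 (edgeR adjusted p = 0.0311).
The count ratio of Nid1 to Lamc1, the gene of a laminin partner chain, was 1.74, 1.17, 1.34 and 1.42 in antiCD47 1 to 4 and 2.03, 2.11, 2.25 and 2.01 in IgG 1 to 4. The groups did not overlap, and the ratio in antiCD47 was 0.669 times that in IgG (exact permutation p = 0.0286, adjusted p = 0.0381 over the 4 ratios). This ratio too was chosen with earlier results known, and its p is the smallest that 4 against 4 can give. Nid2, the other nidogen gene, had 4.45 to 5.41 CPM in antiCD47 and 4.37 to 8.31 CPM in IgG and did not pass (log2 fold change -0.38 ± 0.18, edgeR adjusted p = 0.173).
Hspg2, the gene of perlecan, had 22.7, 24.8, 24 and 25.5 CPM in antiCD47 1 to 4 and 29.3, 23.2, 25.4 and 31.6 CPM in IgG 1 to 4. IgG 2 and IgG 3 lay within the antiCD47 range, and the log2 fold change of -0.17 ± 0.10 did not pass (edgeR adjusted p = 0.251). Agrn, the gene of agrin, a second heparan sulphate proteoglycan of basement membranes, had 25.5 to 27.5 CPM in antiCD47 and 32.6 to 42.1 CPM in IgG and fell (-0.42 ± 0.09, adjusted p = 0.0273).

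Compared per kilobase of exon, the 10 genes had the same order of levels in both groups. The length used was that of all annotated exons of a gene merged, so the order between genes also depends on annotation. Col4a1 was highest, at 19.7 ± 3.05 CPM per kilobase in antiCD47 and 16.2 ± 1.75 in IgG (SD, n = 4 each). Col4a2 followed at 7.9 ± 0.528 in antiCD47 and 10.1 ± 1.91 in IgG, Nid1 at 6.58 ± 1.03 and 9.17 ± 0.616, and Lamc1 at 3.92 ± 0.486 and 3.68 ± 0.412. Next came Hspg2, Lamb1 and Lamb2, and then the alpha chains Lama4, Lama2 and Lama5, the last at 0.264 ± 0.0463 in antiCD47 and 0.445 ± 0.115 in IgG. The ranges of Col4a2 and Nid1 overlapped in both groups, as did those of Lama2 and Lama5. In IgG the ranges of Hspg2 and Lamb1, of Lamb1 and Lamb2 and of Lama4 and Lama2 also overlapped, and in antiCD47 these neighbours were apart. The alpha chains summed over all 5 genes reached 1.81 ± 0.174 CPM per kilobase in antiCD47 and 2.32 ± 0.46 in IgG, below the sum of Lamc1 and Lamc3 at 4.73 ± 0.357 in antiCD47 and 5.53 ± 0.799 in IgG.

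The calls depended on single libraries. IgG 4 was the highest IgG library in all 10 genes, and antiCD47 4 the highest antiCD47 library in 7. IgG 4 also had the highest summed level, among IgG libraries, of bile duct, smooth muscle and portal fibroblast, endothelial and stellate markers. The same held for fibrillar collagens, and the lead was narrow for sinusoidal endothelial markers. Within the smooth muscle and portal fibroblast list, Tagln (10.1 CPM) and Acta2 (2.94 CPM) were lowest in IgG 4 among IgG libraries. Myh11 lay between, and Eln, Dpt, Mfap4, Thy1 and Cnn1 were highest there. Library antiCD47 4 had the highest sum of 4 mesothelial markers, at 20.8 CPM against 5.15 CPM in the lowest antiCD47 library and 5.6 to 8.94 CPM in IgG. The part of these markers in the results was not tested. Of the 5 genes that fell, 0 passed without IgG 1, without IgG 4 or without antiCD47 3, 1 (Lamb2) passed without IgG 3, 2 (Lamb2 and Nid1) without antiCD47 2, and 3 (Lama4, Lamb2 and Nid1) without IgG 2 and antiCD47 2 together. In the fits without 1 library all 5 kept a negative log2 fold change and an unadjusted p of at most 0.0122. The number of genes called in the whole table moved with them: 1678 genes were called with all libraries and 174 when IgG 1 was left out. Leaving out IgG 3 gave 92 and leaving out IgG 4 gave 2. On the antiCD47 side, 3630 were called when library 1 was left out, 756 when library 2 was and 21 when library 3 was.

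The rest of the basement membrane was read from a list of 27 genes, of which 26 were tested. Their median log2 fold change was -0.67, against -0.01 over all genes. Of these 26, 14 fell, against 5.4% of all genes called lower, 0 rose and 12 did not pass. Besides the chains named above, they included Smoc2 (-1.13 ± 0.13, edgeR adjusted p = 0.0113), a calcium-binding matrix protein, Col15a1 (-1.04 ± 0.20, 0.0218), a collagen that ties basement membrane to the fibres below it, and Sparc (-0.76 ± 0.14, 0.0197), which binds collagen IV. Pxdn, the peroxidase that crosslinks collagen IV networks, had 7.25 to 9.08 CPM in antiCD47 and 9.2 to 14.4 CPM in IgG and fell too (-0.61 ± 0.14, 0.0298). Col18a1, the collagen from which endostatin is cut and the gene of the list with the highest CPM per kilobase, had 702, 704, 636 and 672 CPM in antiCD47 1 to 4 and 759, 746, 710 and 719 CPM in IgG 1 to 4. Its groups did not overlap, yet the difference was small and did not pass (-0.11 ± 0.07, adjusted p = 0.271). Of the higher genes, 1 (Lama1) had an unadjusted edgeR p under 0.05, and DESeq2 and voom with quality weights called it. Without single libraries the count of 14 became 2 (IgG 1), 3 (IgG 3), 0 (IgG 4), 9 (antiCD47 2) and 1 (antiCD47 3).

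Among 13 receptor genes for basement membranes, 4 fell, against 5.4% of all genes called lower, and 0 rose by edgeR, with a median of -0.20. Receptor genes that fell included Itga3 (-0.62 ± 0.12, edgeR adjusted p = 0.021) and Itga6 (-0.60 ± 0.15, 0.0339), which encode laminin-binding integrin alpha chains. The others were Itgb4 (-1.04 ± 0.26, 0.0363), the epithelial beta chain that pairs with the Itga6 product, and Ddr1 (-0.81 ± 0.20, 0.0367), a collagen receptor kinase of epithelia. Itga7, another laminin-binding alpha chain of the list, did not pass (0.09 ± 0.14, edgeR adjusted p = 0.68). Itgb1, the beta chain shared by most matrix-binding integrins, had 217 to 231 CPM in antiCD47 and 213 to 224 CPM in IgG. The collagen-binding Itga1 was at -0.20 ± 0.10 (adjusted p = 0.176) and dystroglycan (Dag1), a laminin receptor, at -0.16 ± 0.07 (0.144), and neither passed. Of the higher ones 0 had an unadjusted edgeR p under 0.05, and voom with quality weights called 1, Sdc1. The count of 4 became 0 without IgG 1, IgG 3, IgG 4 or antiCD47 3 and 1 without antiCD47 2.
Of 15 genes for folding and export of collagen, 13 were tested, 0 fell and 1 rose, with a median of 0.05. For comparison, 5.4% of all genes tested were called lower and 5.44% higher. The gene that rose was Plod3 (0.31 ± 0.08, edgeR adjusted p = 0.0416), a lysyl hydroxylase and glycosyltransferase needed for collagen IV secretion, with 28.1 to 35.7 CPM in antiCD47 and 25 to 26.8 CPM in IgG. The collagen chaperone gene Serpinh1 was at -0.15 ± 0.14 (adjusted p = 0.467) and Mia3, whose product loads collagen for export, at 0.09 ± 0.08 (0.438). The unadjusted edgeR p was under 0.05 for 3 of the 13 genes with a negative value, P3h2, Crtap and Plod2, against 16.0% of all genes, and DESeq2 called 2 of them lower, Crtap and Plod2. Fibrillar collagens, for comparison, fell in 5 of 6 tested genes with a median of -1.0, among them Col1a1 (-1.25 ± 0.17), Col3a1 (-1.18 ± 0.20), Col1a2 (-1.08 ± 0.15) and Col5a2 (-0.91 ± 0.14).

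**Figure D5:**
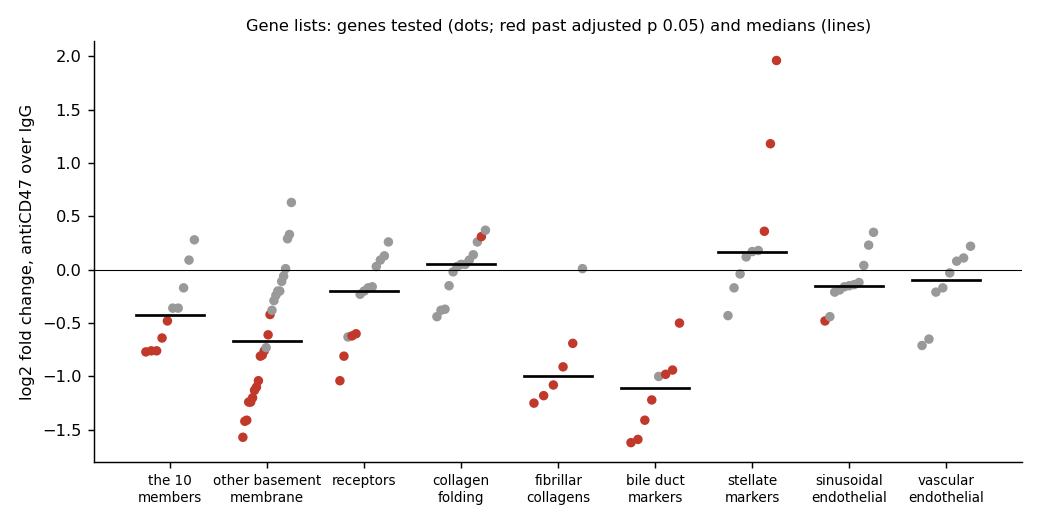
Log2 fold change, antiCD47 over IgG (vertical axis), of every tested gene of 9 lists (dots, red past an adjusted p of 0.05), with each list's median as a line. The 10 genes have a median of -0.42, other basement membrane genes -0.67, fibrillar collagens -1.0, bile duct markers -1.11 and vascular endothelial markers -0.10.

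Beside the marker counts given here, 5.4% of all genes tested were called lower by edgeR and 5.44% higher. The 8 bile duct markers, of which 7 fell, had a summed level of 31.5 to 52.1 CPM in antiCD47 and 73.9 to 99.6 CPM in IgG. Those with the smallest p were Tspan8 (-1.59 ± 0.24), Epcam (-1.62 ± 0.26), Bicc1 (-0.98 ± 0.16) and Prom1 (-1.41 ± 0.25). Of the 7 tested markers of smooth muscle and portal fibroblasts, 3 fell (Eln, Dpt and Mfap4), with sums of 21.7 to 42.4 CPM in antiCD47 and 55 to 73.1 CPM in IgG, and the contractile gene Cnn1 was at 0 in antiCD47 1 and at 0.0372 to 0.262 CPM in the other libraries. Acta2, the smooth muscle actin gene, was at -0.33 ± 0.32 (edgeR adjusted p = 0.502). Of 11 sinusoidal endothelial markers 1 fell, the growth factor receptor gene Flt4 (-0.48 ± 0.12, edgeR adjusted p = 0.0374), with sums of 260 to 331 CPM in antiCD47 and 260 to 342 CPM in IgG. Fcgr2b was at -0.44 ± 0.19 (adjusted p = 0.145), Clec4g at 0.35 ± 0.14 (0.118) and Stab1 at -0.19 ± 0.12 (0.277). Of 8 vascular endothelial markers 0 passed by edgeR, 2 had an unadjusted p under 0.05 (Cd34 and Emcn, both lower), against 16.0% of all genes, and DESeq2 called those 2, with sums of 169 to 183 CPM in antiCD47 and 147 to 186 CPM in IgG. Cd34, a marker of capillarized sinusoids, was the nearest, with 4.57 to 7.18 CPM in antiCD47 and 6.55 to 12.1 CPM in IgG (-0.71 ± 0.20, adjusted p = 0.0504), and Emcn was at -0.65 ± 0.21 (0.0701). Of 9 stellate cell markers 3 rose, Hhip (1.96 ± 0.26), Ngfr (1.18 ± 0.20) and Ecm1 (0.36 ± 0.07), with sums of 382 to 412 CPM in antiCD47 and 308 to 391 CPM in IgG. Ecm1 had the highest mean level of the list, 161 CPM in antiCD47 and 125 CPM in IgG. Lrat (-0.04 ± 0.16), Reln (0.17 ± 0.09), Des (0.18 ± 0.13), Rgs5 (0.12 ± 0.12) and Hand2 (-0.17 ± 0.12) did not pass by edgeR. After the 3 that rose, the smallest p was that of Pdgfrb, a receptor of stellate cells and pericytes, with 17.7 to 25.9 CPM in antiCD47 and 24.3 to 35.1 CPM in IgG. Its log2 fold change of -0.43 ± 0.14 did not pass by edgeR (adjusted p = 0.0701), and DESeq2 and voom with quality weights called it lower. The part of any of these cells in the results was not tested.

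The authors' deposited table gives Col4a1 a larger difference than the counts do. In the authors' deposited table its log2 fold change is 0.66 with an adjusted p of 0.000203, while the counts gave 0.28 (edgeR adjusted p = 0.131). The direction of the authors' deposited table was read from its signs, which matched the edgeR signs in 1509 of 1509 genes past an adjusted p of 0.05 in both. The authors' deposited table lies nearer to 0 than the edgeR values in 83.4% of 14176 shared genes, and the Col4a1 gap of 0.38 was larger than in 92.2% of them. Lama5 passed from the counts and not in the authors' deposited table: the authors' deposited table has -0.17 (adjusted p = 0.068) against -0.76 from the counts, and its mean normalized count there is 1.3 times the one computed from the counts, where the other 9 genes are at 1 to 1.03 times. The authors' deposited table has Lama2 at an adjusted p of 7.29e-07, Nid1 at 0.00315, Lamb2 at 0.0033 and Lama4 at 0.011, all lower, and Col4a2 at 0.0816, Lamb1 at 0.104, Hspg2 at 0.424 and Lamc1 at 0.895. Of the 10 genes, 4 in the authors' deposited table therefore pass as lower and 1 as higher, where 18.4% of 14432 genes pass.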

How the data were processed

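Estimated counts per Ensembl gene were deposited by the authors as whole numbers without normalization, from polyadenylated liver RNA in TruSeq libraries per the labels' protocols. The submitters' processing notes name GRCm39 as the build, and Salmon 1.3.0 and DESeq2 1.32.0 as tools, without their roles. Isoform lengths are not corrected for in counts, so a shift between isoforms can move them. The authors' deposited table also gives a mean normalized count (a signal), log2 fold changes, p-values with adjusted p-values and a rank score, per the file headers, and its reference group is not stated.

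Genes were filtered with filterByExpr, scaled by TMM and tested with glmQLFit and glmQLFTest in edgeR 4.0.16 (R 4.3.3), antiCD47 over IgG, with Benjamini-Hochberg adjustment over 15472 genes. The SE is the log2 fold change divided by the root of its F statistic. Ratios were tested in scipy 1.17.1. The members, lists and tests were chosen with earlier results of these data known. An item is not reported here and is in no list or share. Named from each list are up to 4 genes with the smallest p, and others needed to say what a count holds. Names and exon lengths come from GENCODE M21 and promoters from RefSeq (8 of 10 genes matched), both of an older build than GRCm39. An exon length is that of all annotated exons of a gene merged, not of 1 transcript. Other genes overlapping exons of the 10, beyond Col4a1 with Col4a2, had at most 3 counts in any library. Alternatives were other scalings, filters, tools (DESeq2 1.42.0, limma 3.58.1), a replicate block, left-out libraries and an adjusted p of 0.1. Figures were drawn with matplotlib 3.10.9. Counting precision follows from 43691472 to 55477484 counts per library.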

Additional observations from a re-analysis of the deposited data

Results flagged for a closer look

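The Lamb1 to Lamb2 count ratio of antiCD47 2, at 1.94, stood apart from the other antiCD47 libraries, which lay between 2.39 and 2.45. The gap to its nearest neighbour was 0.887 of the group's range, above Dixon's critical value for 4 libraries. It was the only one flagged among 28 sets of 4 values checked (10 genes and 4 ratios in each group), and chance alone flags about 1 in 20.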

How the results depend on the processing

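The 5 lower calls kept their direction in every alternative tried. Scaling by library totals alone gave a median log2 fold change over all genes of -0.19, against -0.01 with TMM. It gave 3581 genes called, 8 of the 10 genes lower, 7 receptor genes and 3 collagen folding genes lower, and turned Lamc1 to -0.09. Genes called in all were 3174 by DESeq2, 4331 by voom with quality weights, which also called 1 of the 10 genes (Col4a1) higher, 3574 at an adjusted p of 0.1, and 1090 without IgG 2 and antiCD47 2, where 3 of the 10 were lower. Collagen folding genes called lower were 1 with upper quartile scaling, a minimum of 10 counts, the replicate block or those 2 libraries left out, and 2 by DESeq2, voom with quality weights or at 0.1. With 1 library left out, the calls ran from 2 to 3630 in all, 0 to 5 among the 10, 0 to 15 among other basement membrane genes, 0 to 5 among receptors, 0 to 1 among folding genes and 0 to 5 among fibrillar collagens. The ratio differences ran from 0.48 to 0.68 (Col4a1/Col4a2), 0.36 to 0.47 (Lamb1/Lamb2) and -0.68 to -0.49 (Nid1/Lamc1), with an adjusted p of 0.0762 that follows from fewer libraries. Same-numbered libraries deviated together only weakly (r = -0.023 to 0.157), so the numbers were not taken as pairs. With the number as a replicate block the ratio differences were 0.61, 0.39 and -0.58 with an adjusted p of 0.167, since 4 pairs allow no p under 0.125, and Lamb1 passed (adjusted p = 0.0405). The cause of the other shifts was not tested.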

Other observations

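Over the 8 libraries the genes most like Col4a1 by Pearson correlation of log2 CPM were Smndc1 (0.956), Trmt2a (0.944), Champ1 (0.933), Zfp113 (0.931) and Proser1 (0.921). Being the highest among all genes tested, over only 8 libraries, values of this size can arise by chance. Col4a2 correlated with Col4a1 at -0.238 and Nid1 at -0.633. For Lamc1 the most alike were Vmn1r197 (0.952), Prkci (0.923), Ofd1 (0.921), Chd2 (0.917) and Gt(ROSA)26Sor (0.916). Predicted and clone-named gene models were left out of both rankings. All genes of a library share its depth and scaling, so these values are descriptions.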
